A study of Solanum chacoense with 24 samples.

Results

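Leaves of EE501F2_093, a genotype of the wild potato relative Solanum chacoense, were compared 48 h after adult Colorado potato beetles had been placed on the plants. The comparison was defined by the sample labels alone, and it holds 4 of the 24 leaf RNA libraries of the study. The beetle group consisted of 2 libraries of EE501F2_093 leaves from treatment cages at 48 h. The control group consisted of 2 libraries of EE501F2_093 leaves from the beetle-free cage at the same hour. All plants were 15 weeks old when beetles were placed, and the 50 adult beetles applied to treatment cages had been starved for 6 h. Each genotype had 6 plants, kept at 2 per cage in 2 treatment cages and 1 control cage, so a cage difference and a beetle effect cannot be told apart. The same design was followed in another genotype, USDA8380-1, and both genotypes were also harvested at 0 h, before beetles, and at 24 h. Leaf tissue was pooled for each library, and p-values therefore measure only the spread between such pools. The plants and cages were shared over the harvests, and the labels do not assign them to libraries.

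Chewing insects wound the leaf, and wounded leaves of the potato family make jasmonates, hormones that switch on defence genes in the damaged leaf and elsewhere in the plant. Products of such genes include proteinase inhibitors, which hinder digestion in the insect gut, and polyphenol oxidases, which act on leaf phenolics. Leaves of Solanum chacoense are also known for glycoalkaloids, steroid-derived compounds that can deter the beetle. The files list 32917 gene identifiers, and 0 of them are paired with a name. Whether any of these defence families is among the genes below was not tested, and leaf markers could not be looked up. Genes are described by identifier or by chromosome, read from the 2 digits after DM in the identifier.

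Counts on genes numbered 33899501 and 31092357 in the beetle libraries and 29082678 and 44624279 in the control libraries. Over the whole series they ranged between 2114184 and 51999317. The beetle libraries had 26022 and 26097 genes with at least 1 count, and the control libraries had 25298 and 26361. The 10 most abundant genes took 7.29% and 15.4% of the counts in the beetle libraries, against 7.19% and 6.35% in the control libraries. Both beetle libraries lay above both control libraries in that share, by little for replicate 1. Its two-sided exact permutation p was 0.333, the smallest that 2 against 2 libraries allow.

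Replicates resembled each other about as much as they resembled libraries of the other arm. Across 24870 genes, log2 CPM (read counts scaled to a common library size with TMM factors) correlated at r = 0.951 between the beetle replicates and at r = 0.950 between the control replicates, and the 4 pairs of a beetle and a control library had r between 0.939 and 0.970. Beetle replicate 2 and control replicate 2 formed the closest of these pairs, and each was the nearest of the other 11 EE501F2_093 libraries to the other. Beetle replicate 1 was nearest to beetle replicate 1 of 24 h (r = 0.979), and control replicate 1 to control replicate 1 of 24 h (r = 0.968). At 48 h, 2641 genes (10.6%) were at least 2-fold apart between the beetle replicates and 2539 (10.2%) between the control replicates, on the log2(CPM + 0.5) scale. At 0 h these counts were 1283 and 1593. Genes are not independent replicates, and these correlations are descriptions.

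No gene passed the test for a difference between beetle cages and the control cage at 48 h. In edgeR's quasi-likelihood test 0 of 24870 genes had an adjusted p under 0.05 (0%), and the smallest adjusted p was 1. At an unadjusted p under 0.05 there were 693 genes, of which 497 were higher in beetle cages (2% of the genes tested) and 196 were lower (0.788%). Together they made up 2.79% in this fit of all 24 libraries, below the 5% that would be expected with no effect in any gene. DESeq2 called 5 genes, all higher in beetle cages, and edgeR called 1 gene in a fit of the 12 EE501F2_093 libraries alone. In that 12-library fit 1467 of 23558 genes had an unadjusted p under 0.05, a share above 5%. In the same cages before beetles edgeR called 0 genes (0%), with 250 (1.01%) higher and 72 (0.290%) lower at an unadjusted p under 0.05, while 0 were called by DESeq2. The count at an unadjusted p under 0.05 was 370 without control replicate 1 and 1419 without control replicate 2. In the other genotype, 2 libraries, USDA8380-1 beetle replicate 3 of 0 h and control replicate 2 of 24 h, had stood apart in an earlier look at these data and enter the common estimate of the spread. Without them the count was 1185 genes, 672 higher and 513 lower, and 0 had an adjusted p under 0.05 in edgeR's test. Values below are therefore given by library, and none of the genes is reported as changed by beetles.

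Soltu.DM.11G024480.3, on chromosome 11, and Soltu.DM.08G022130.3, on chromosome 8, were the higher genes with the smallest p among those of at least 5 CPM whose arms did not overlap. Soltu.DM.11G024480.3 had 44.8 and 26.7 CPM in the beetle libraries, against 9.96 and 7.77 CPM in the control libraries. The log2 fold change of 2.01 (SE 0.47) had in edgeR's test an unadjusted p of 5.49e-04 and an adjusted p of 1. Both beetle libraries lay well above both control libraries, which were close together. At 24 h the gene had 24.3 and 20.1 CPM in beetle libraries and 21 and 8.85 CPM in control libraries, which overlapped. Before beetles it had 38.5 and 43.1 CPM in plants assigned to beetles and 37.6 and 21.8 CPM in control plants. The 48 h control libraries were thus lower than all 4 libraries of 0 h, while 1 beetle library of 48 h lay inside the 0 h range and the other slightly above it.

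Soltu.DM.08G022130.3 had the tightest replicates of the named genes. It had 60.7 and 63.1 CPM in the beetle libraries, against 16.9 and 16.9 CPM in the control libraries (log2 fold change 1.87, SE 0.47; edgeR unadjusted p = 0.00105, adjusted p = 1). The 24 h libraries had 54.7 and 42.6 CPM with beetles and 33.0 and 22.5 CPM in controls. The 0 h libraries had 18.1 and 19.5 CPM in plants assigned to beetles and 13.2 and 10.6 CPM in control plants. The arms did not overlap at any of the 3 hours, and the log2 fold change was 0.66 at 0 h, 0.81 at 24 h and 1.87 at 48 h. The 48 h value minus the 0 h value was 1.21 (SE 0.65; edgeR unadjusted p = 0.0796).

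Soltu.DM.05G005140.1 and Soltu.DM.01G033780.1 were the corresponding lower genes, on chromosomes 5 and 1. Soltu.DM.05G005140.1 had 16.1 and 18.9 CPM in the beetle libraries, against 34.9 and 54.7 CPM in the control libraries (log2 fold change -1.36, SE 0.34; edgeR unadjusted p = 0.00112, adjusted p = 1). It was already lower in that arm before beetles, at 12.8 and 10.7 CPM in plants assigned to beetles and 28.2 and 29.4 CPM in control plants. The log2 fold change at 0 h was -1.30, and the 48 h value differed from it by -0.06 (SE 0.48; edgeR unadjusted p = 0.901). For this gene the arms were about as far apart before beetles as at 48 h.

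Soltu.DM.01G033780.1 had 28.9 and 31.1 CPM in the beetle libraries, against 133 and 41.3 CPM in the control libraries (log2 fold change -1.53, SE 0.46; edgeR unadjusted p = 0.00393, adjusted p = 1). Control replicate 1 was more than 3 times as high as control replicate 2, although both lay above the beetle libraries. Without control replicate 1 the log2 fold change was -0.46, and without control replicate 2 it was -2.15. At 0 h the order was the opposite, with 59.9 and 42.7 CPM in plants assigned to beetles and 43.2 and 37.8 CPM in control plants, which overlapped.

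**Figure D1:**
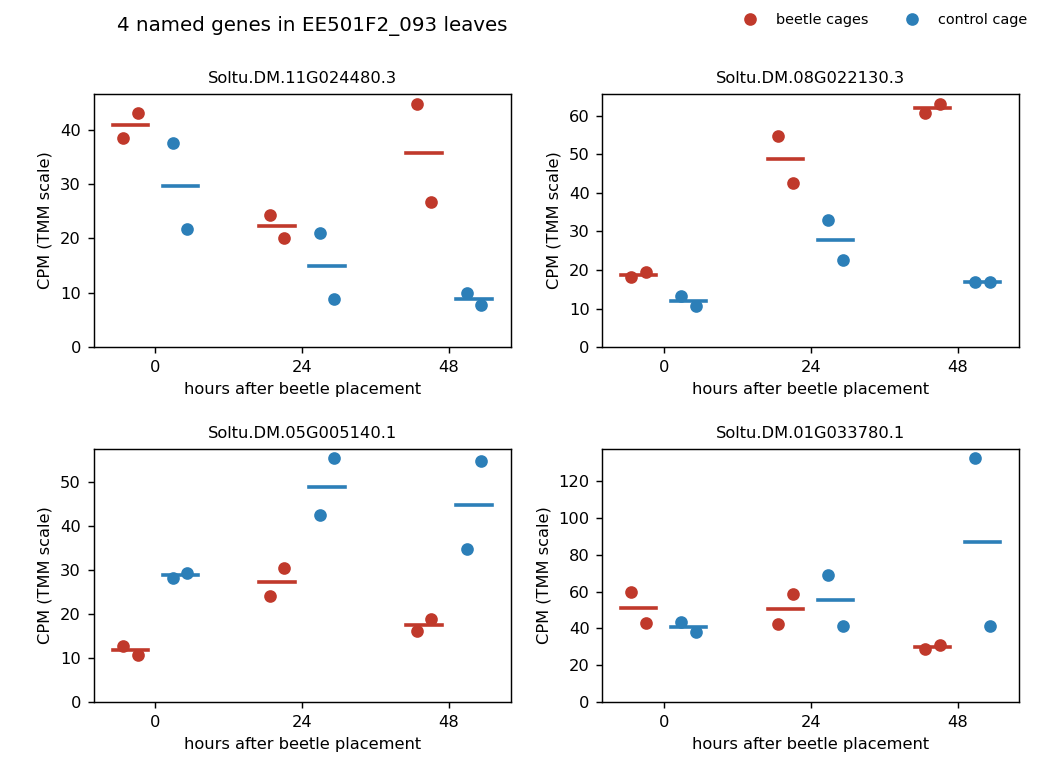
CPM on the TMM scale of 4 genes in the EE501F2_093 libraries (points) and their group means (bars) at 0, 24 and 48 h, beetle cages left of the control cage. Soltu.DM.08G022130.3 reaches 60.7 and 63.1 CPM with beetles at 48 h and 16.9 and 16.9 CPM in controls, whereas Soltu.DM.05G005140.1 has about the same gap at 0 h as at 48 h.

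The 497 genes higher at an unadjusted p under 0.05 were mostly scarce in control leaves. Their median level was 4.50 CPM in beetle libraries and 1.13 CPM in control libraries. Of them 430 had a fitted log2 fold change of at least 1 and 149 of at least 3, and 38 had no count in either control library. The 196 lower genes were more abundant, with a median of 11.8 CPM in beetle libraries and 21.2 CPM in control libraries. Among these, 102 had a log2 fold change of -1 or less and 11 had no count in either beetle library. The fitted fold change of a gene without counts in an arm depends on the prior count and is no measured fold.

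Because these genes were chosen on the 48 h contrast, their 48 h values are descriptions. The 0 h and 24 h libraries were not part of that contrast, although they entered the filter and the common estimate of the spread behind its p-values. Of the 497 higher genes, 197 had a mean of at least 5 CPM at 48 h. Their median was 26.9 and 17.9 CPM in the beetle libraries of 48 h, against 5.71 and 8.41 CPM in the control libraries. The 24 h medians were 20.0 and 17.1 CPM with beetles and 12.1 and 9.09 CPM in controls. The 0 h medians were 19.8 and 16.9 CPM in plants assigned to beetles and 13.9 and 10.5 CPM in control plants. The beetle-arm libraries were the higher ones at all 3 hours, 0 h included. Between 0 h and 48 h the control medians differed more than those of the beetle arm. The 119 lower genes of at least 5 CPM had a median of 33.2 and 32.5 CPM in the beetle libraries of 48 h, against 62.2 and 52.4 CPM in the control libraries. At 0 h they had 41.9 and 35.6 CPM in plants assigned to beetles and 44.3 and 47.1 CPM in control plants.

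The sign of the 48 h difference was often present before beetles. In the 0 h comparison 396 of the 497 higher genes (79.7%) had a positive log2 fold change, against 49.7% of all genes tested, and their median was 0.47. At 24 h the number was 429 (86.3%, against 50.8% of all genes), with a median of 0.72. Of the 196 lower genes, 152 (77.6%) had a negative value at 0 h, against 49.8% of all genes, and 165 (84.2%) at 24 h, against 48.6%. In USDA8380-1 at 48 h, 391 of the 497 genes (78.7%) were positive, against 50.1% of all genes, with a median of 0.61, and 137 of the 196 (69.9%) were negative, against 48.9%. The 3 hours share plants and cages, so the values of EE501F2_093 at other hours are no independent check of a beetle effect.

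**Figure D2:**
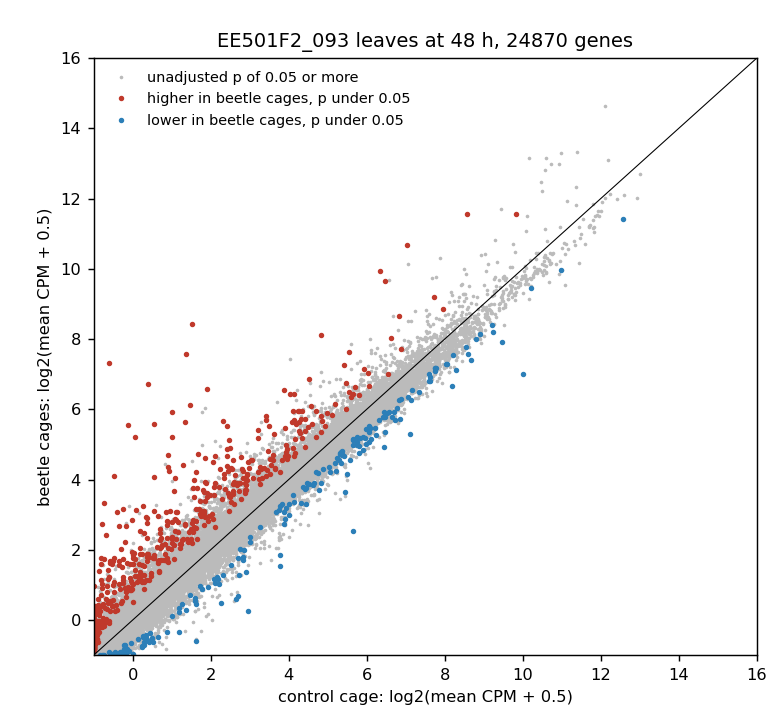
Mean level of each of the 24870 genes at 48 h, as log2(mean CPM + 0.5), in beetle cages (vertical axis) against the control cage (horizontal axis), with the diagonal marking equal levels. The 497 genes higher in beetle cages at an unadjusted p under 0.05 (red) spread mostly over low control levels, and the 196 lower genes (blue) lie closer to the diagonal.

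Counting genes by the order of their libraries, without a test, gave more higher than lower genes as well. At 48 h, 587 genes (2.36%) had both beetle libraries above both control libraries and a difference of at least 2-fold on the log2(CPM + 0.5) scale, and 129 genes (0.519%) had the reverse. Before beetles the same rule gave 337 genes (1.36%) higher in plants assigned to beetles and 70 (0.281%) lower. At 24 h it gave 444 (1.79%) and 338 (1.36%). The excess of higher over lower genes was thus present at 0 h, when neither arm had beetles. Without control replicate 2 the 48 h count was 1968 higher and 449 lower genes, and without control replicate 1 it was 523 higher and 468 lower. With 4-fold in place of 2-fold there were 94 higher and 6 lower genes.

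A small group of genes was far apart between the arms in every library. In 15 genes (0.0603%) the lower beetle library had at least 1 CPM and at least 8-fold the level of the higher control library, and 0 genes showed the reverse. At 0 h the rule gave 5 genes (0.0201%) higher and 0 lower, and at 24 h it gave 4 (0.0161%) higher and 5 (0.0201%) lower. The 15 genes lay on 8 chromosomes. Members of the 2 longest runs of neighbouring genes, described below, are among them and are not separate observations there. The median level of the 15 genes was 25.7 CPM in beetle libraries and 0.204 CPM in control libraries. At 24 h, 13 of them again had both beetle libraries above both control libraries, an order that 15.1% of all genes tested had at that hour, and the median log2 fold change was 3.28 at 24 h and -0.00 at 0 h. In USDA8380-1 at 48 h, 13 of the 15 had non-overlapping arms in the same direction, against 19.4% of all genes tested. There, 2 of the 15 were under 0.1 CPM in all 4 libraries. A chromosome 4 gene of these 2 still counts among the 13. It had 0.0707 and 0.0295 CPM with beetles and 0 CPM in both control libraries. In 10 of the 15 genes some 0 h library, without beetles, was higher than the lower beetle library of 48 h. The number of genes past this rule was 24 without control replicate 1 and 207 without control replicate 2, and 63 and 90 without beetle replicates 1 and 2.

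Soltu.DM.02G010430.1, on chromosome 2, was the most abundant of these genes in beetle libraries. It had 74.4 and 244 CPM in the beetle libraries, against 0.0325 CPM (1 count) and 0.278 CPM (13 counts) in the control libraries. The ratio of summed counts was 852, with an exact 95% interval of 508 to 1560 that covers counting error only. Its fitted log2 fold change was 9.84 (SE 2.50), with an adjusted p of 1 in edgeR's test and 0.00176 in DESeq2. At 24 h it had 65.8 and 14.5 CPM with beetles and 0.988 and 0.243 CPM in controls. At 0 h it had 1.35 and 0.0545 CPM in plants assigned to beetles and 0.0325 and 2.06 CPM in control plants, which overlapped. In USDA8380-1 at 48 h it had 181 and 42.8 CPM with beetles and 0.185 and 2.01 CPM in controls. In USDA8380-1 at 24 h it had 23.7 and 951 CPM with beetles and 26.9 and 2.11 CPM in controls. Its arms overlapped in that last comparison and did not overlap in the other comparisons with beetles.

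The single call of the 12-library fit was a gene on chromosome 9, also among the 15 and among the DESeq2 calls. It had 42.6 and 30.6 CPM in the beetle libraries, against 1.07 and 1.95 CPM in the control libraries. In that fit its log2 fold change was 4.57 (SE 0.42) with an edgeR adjusted p of 0.0264, whereas the SE was 1.24 and the adjusted p 1 in the fit of all 24 libraries. With 24 h of feeding the levels were 10.4 and 9.29 CPM in beetle cages and 4.46 and 2.37 CPM in controls. Before beetles they were 12.2 and 18.0 CPM in plants assigned to beetles and 6.57 and 5.54 CPM in control plants. The arms did not overlap at any hour, and at 48 h the beetle libraries were the highest and the control libraries the lowest of the 12. The other 3 DESeq2 calls lay on chromosomes 4, 7 and 8, with log2 fold changes of 3.78, 4.87 and 5.19 and DESeq2 adjusted p of 0.0213, 0.0348 and 0.0447. The chromosome 4 gene had 8.63 and 4.89 CPM in the beetle libraries, against 0.325 and 0.642 CPM in the control libraries. The chromosome 7 and 8 genes are also among the 15 and sit in the longest runs of neighbouring genes, described below.

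Genes past the unadjusted threshold sat next to each other in several places. A run was counted where at least 2 tested genes that follow each other in identifier order had an unadjusted p under 0.05 in the same direction. At 48 h there were 36 runs with 83 of the 693 genes past the threshold, 31 runs higher and 5 lower in beetle cages. At 0 h there were 6 runs with 12 of 322 genes, and none was longer than 2 genes. At 24 h there were 48 runs with 109 of 771 genes. In USDA8380-1 at 48 h there were 90 runs with 197 of 1311 genes. In the 12-library fit of EE501F2_093 at 48 h, where 1467 genes were past the threshold, there were 77. Comparisons with more genes past the threshold can hold more runs, so the run counts alone do not measure clustering. Neighbouring copies of a gene may share or split reads, which the counts do not show, and single genes of a run are uncertain in that respect.

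The longest run held 7 genes on chromosome 8, within 10 consecutive identifiers. Summed over the 7 genes, beetle libraries had 61.8 and 28.1 CPM, against 2.14 and 5.22 CPM in control libraries. Log2 fold changes ran between 2.30 and 5.16. The genes were chosen for low p on these libraries, so the 48 h gap is a description. At 24 h the sums were 47.7 and 20.7 CPM with beetles and 9.91 and 4.01 CPM in controls. At 0 h they were 19.3 and 13.4 CPM in plants assigned to beetles and 13.2 and 8.73 CPM in control plants. The arms of the sum did not overlap at any hour, and the gap was smallest at 0 h. Most of the 48 h sum in beetle replicate 2 came from a single gene, at 17 CPM. In USDA8380-1 at 48 h that gene reached 1032 and 293 CPM with beetles and 50.3 and 76.2 CPM in controls. There, 3 of the 7 genes had both beetle libraries above both control libraries, against 19.4% of all genes tested. A gene of these 3 was near the floor, at 0.0353 and 0.0295 CPM with beetles and 0 CPM in both control libraries. Another 2 of the 7 had no count in either USDA8380-1 beetle library of 48 h.

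The next run held 5 genes on chromosome 7, within 8 identifiers. Its sums were 204 and 433 CPM in beetle libraries, against 65.1 and 80.0 CPM in control libraries. A member at the edge was expressed in every library, with 101 and 99.9 CPM in beetle libraries and 61.7 and 69.9 CPM in control libraries. The other 4 were low in controls, with 0.0974 to 4.49 CPM there and 2.25 to 142 CPM in beetle libraries. All 5 had both beetle libraries above both control libraries at 24 h as well (15.1% of all genes tested), and 2 did at 0 h (18.2%). Plants assigned to beetles already had 225 and 96.4 CPM of the 5 genes at 0 h, against 69.8 and 95.2 CPM in control plants. Beetle-arm replicate 1 was therefore as high before beetles as beetle replicate 1 of 48 h.

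**Figure D3:**
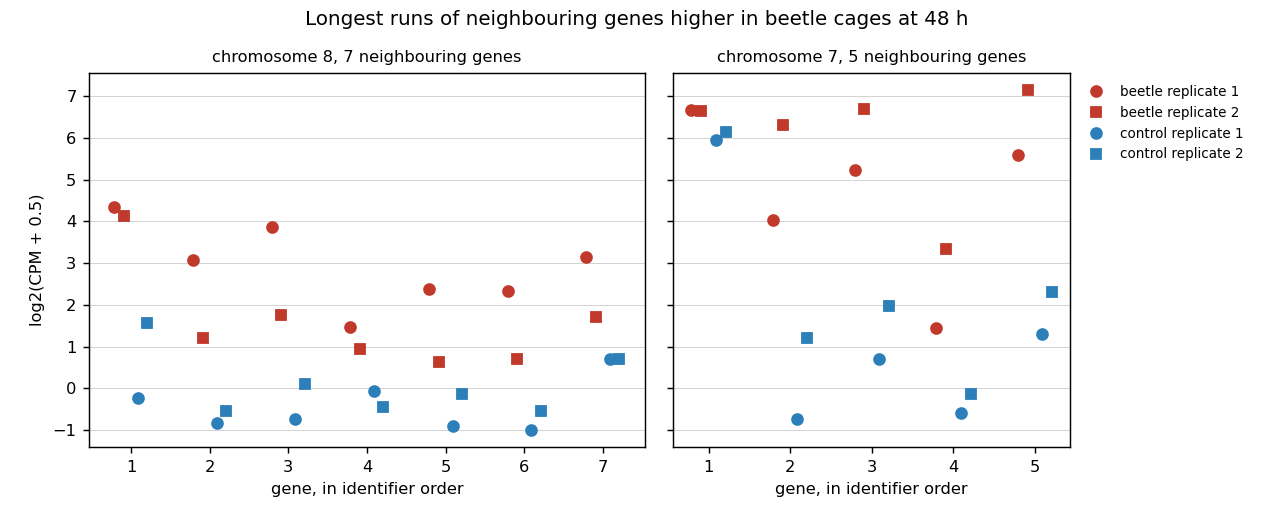
Level of each gene in the 2 longest runs at 48 h, as log2(CPM + 0.5), with genes in identifier order along the horizontal axis, beetle libraries in red left of control libraries in blue, and replicates as circles and squares. Every gene shown has both beetle libraries above both control libraries, and the 5 chromosome 7 genes include 1 that is high in all 4 libraries.

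Runs of 3 genes lay on chromosomes 3, 8 and 12. On chromosome 8 the sums were 622 and 6.33 CPM in beetle libraries, against 0.389 and 5.86 CPM in control libraries. That run rested on beetle replicate 1, and beetle replicate 2 was level with control replicate 2. The same genes had 705 and 254 CPM at 0 h in plants assigned to beetles and 51.3 and 3.0 CPM in control plants, so they were high in that arm before beetles. On chromosome 3 the sums were 28.9 and 36.9 CPM in beetle libraries, against 11.7 and 10.7 CPM in control libraries. There the 0 h libraries had 25.9 and 26.9 CPM in plants assigned to beetles and 28.3 and 28.0 CPM in control plants, so that at 48 h the control libraries stood below the 0 h level and the beetle libraries at or above it. On chromosome 12 the sums were 47.4 and 26.8 CPM in beetle libraries, against 8.89 and 15.5 CPM in control libraries. The 0 h sums were 49.6 and 45.8 CPM in plants assigned to beetles and 39.8 and 24.2 CPM in control plants, so the arms were apart before beetles, and neither beetle library of 48 h exceeded the higher 0 h library of that arm.

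The most abundant leaf transcripts separated the control replicates more than the arms. Among the 100 most abundant genes at 48 h, 20 were at least 8-fold apart between the control replicates, all of them higher in control replicate 2, by 8.86-fold to 289-fold. None of the 100 was that far apart between the beetle replicates. Of all 24870 genes tested, 203 were at least 8-fold higher in control replicate 2 and 10 in control replicate 1, on the log2(CPM + 0.5) scale. Between the beetle replicates 114 of all genes were that far apart. The gap in this direction was thus not confined to abundant genes. Together the 20 genes took 7.51% and 19.5% of the counts in beetle libraries, against 0.199% and 7.37% in control libraries. Control replicate 2 was close to beetle replicate 1, and control replicate 1 stood alone. At 24 h the share was 9.69% and 4.0% with beetles and 6.35% and 4.26% in controls. Before beetles it was 1.51% and 0.919% in plants assigned to beetles and 0.479% and 0.804% in control plants. The genes were thus abundant in the beetle-free cage at 24 h too, and low in both arms at 0 h. In USDA8380-1 at 48 h they took 17% and 11.1% of counts with beetles and 7.64% and 9.01% in controls.

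The most abundant gene of all, on chromosome 12, had 14121 and 37272 CPM in the beetle libraries, against 101 and 8793 CPM in the control libraries. The log2 fold change of 2.53 (SE 1.62) had an edgeR unadjusted p of 0.139 and an adjusted p of 1. At 24 h it had 29205 and 10074 CPM with beetles and 11181 and 5145 CPM in controls, and at 0 h between 192 and 2403 CPM in the 4 libraries. Of the 20 genes, 19 had a positive log2 fold change at 48 h, with a median of 1.99, and 1 had an unadjusted p under 0.05. In 7 of the 20 both beetle libraries lay above both control libraries, as they did in 17.8% of all genes tested. In all 20 both beetle libraries lay above control replicate 1. The 20 genes were chosen on these libraries for control replicates far apart, and all had the low value in control replicate 1. The positive values and the order against control replicate 1 follow in part from that choice and are descriptions. Which of the control replicates stands for a beetle-free leaf at 48 h cannot be told from these libraries. Control replicate 2 was also the deeper library, and the part of depth in this gap was not tested.

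Of the 20 genes, 8 lay on chromosome 9 and 6 on chromosome 3. A cluster of 7 of the chromosome 9 genes sat within 9 consecutive identifiers. Their summed share of counts was 1.88% and 8.06% in beetle libraries, against 0.0440% and 2.20% in control libraries. At 24 h it was 2.01% and 0.996% with beetles and 2.46% and 1.43% in controls, where the arms overlapped. Before beetles it was 0.224% and 0.183% in plants assigned to beetles and 0.0785% and 0.118% in control plants. Whether these neighbours shared reads cannot be told from the counts, so the division among the 7 is uncertain.

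**Figure D4:**
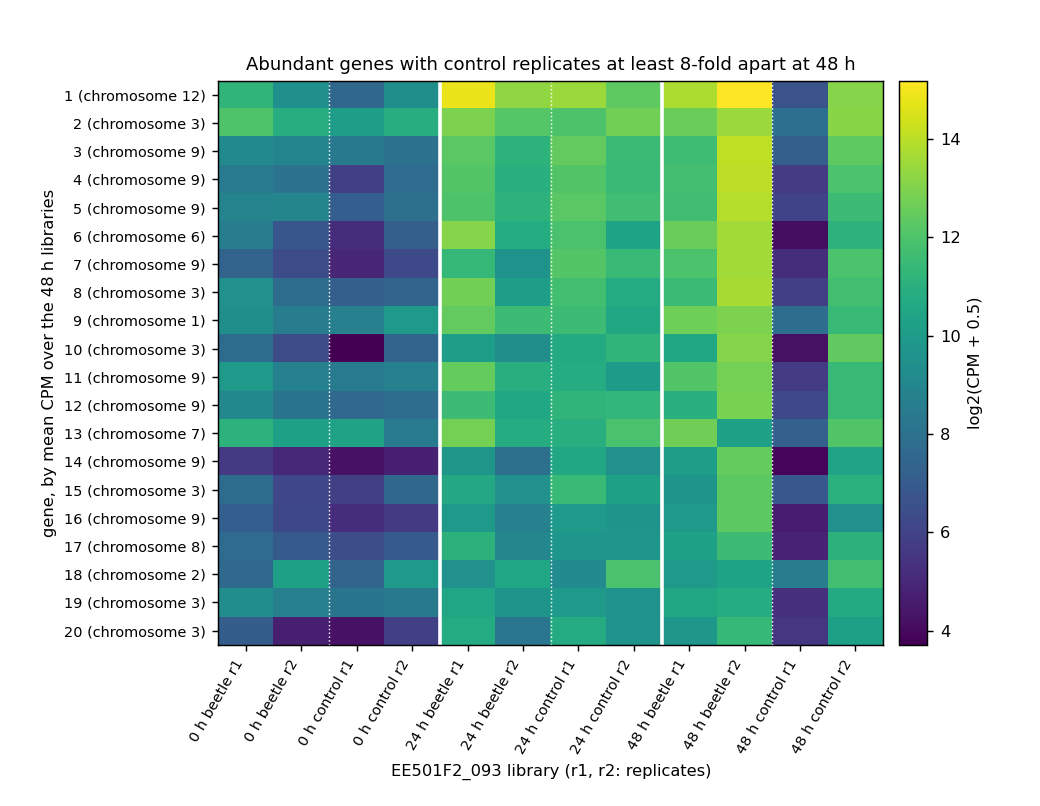
Level of the 20 abundant genes in the 12 EE501F2_093 libraries, as log2(CPM + 0.5) on a colour scale, with genes in rows by mean level at 48 h and libraries in columns by hour, beetle left of control. The rows were chosen for a wide gap between the control replicates of 48 h. Control replicate 1 is the lowest of the 4 libraries of 48 h in all 20 rows, in part because of that choice. Most rows are low at 0 h and high in both arms at 24 h.

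The order of the arms among abundant genes depended on the size of gap counted. Among the 100 most abundant, 9 had both beetle libraries above both control libraries and 25 had both below, whatever the gap, against 17.8% and 15.5% of all genes tested. At a gap of at least 2-fold the counts were 8 and 6, against 2.36% and 0.519% of all genes tested. At an unadjusted p under 0.05 in edgeR's test they were 2 and 2, against 2% and 0.788%. In all genes tested the median log2 fold change was 0.03 with TMM scaling and 0.00 with library totals. Over the whole tissue, fewer cells of a type and less RNA per cell cannot be told apart in such bulk samples.

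Whether the 48 h difference exceeded the one before beetles was tested as the difference of the 2 contrasts. In edgeR's test 0 genes passed (0%), with 88 genes (0.354%) at an unadjusted p under 0.05 toward a higher and 94 (0.378%) toward a lower value at 48 h. The DESeq2 count was 0. Soltu.DM.02G010430.1 and Soltu.DM.04G037030.1 had the smallest p toward a higher value. Soltu.DM.04G037030.1 had 7.48 and 5.27 CPM in the beetle libraries of 48 h, against 1.07 and 1.67 CPM in the control libraries. At 0 h it had 8.89 and 8.93 CPM in plants assigned to beetles and 13.8 and 6.18 CPM in control plants. The difference of its contrasts was 2.38 (SE 0.78; edgeR unadjusted p = 0.00786, adjusted p = 1.00), and both arms were lower at 48 h than at 0 h in mean CPM, the control arm by more.

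Toward a lower value the genes were Soltu.DM.01G033780.1, given above, and Soltu.DM.04G024910.1. Soltu.DM.04G024910.1, on chromosome 4, had 110 and 60.3 CPM in the beetle libraries of 48 h, against 229 and 92.8 CPM in the control libraries, which overlapped. At 0 h it had 256 and 125 CPM in plants assigned to beetles and 112 and 69.7 CPM in control plants. The difference of its contrasts was -1.98 (SE 0.68; edgeR unadjusted p = 0.0103, adjusted p = 1.00). Its replicates were about as far apart as its arms at both hours.

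The 48 h contrast differed from the 24 h contrast in 0 genes by edgeR's test (0%), with 111 genes (0.446%) toward a higher and 102 (0.410%) toward a lower value at an unadjusted p under 0.05. The DESeq2 count was again 0. At 24 h itself edgeR called 0 genes, with 510 (2.05%) higher and 261 (1.05%) lower at an unadjusted p under 0.05. Of the 4 genes named for 48 h, Soltu.DM.11G024480.3 had the largest difference between these hours, with a log2 fold change of 2.01 at 48 h and 0.57 at 24 h. The difference was 1.44 (SE 0.64; edgeR unadjusted p = 0.0392, adjusted p = 1.00).

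Whether the 48 h difference itself differed between EE501F2_093 and USDA8380-1 was tested as the difference of their contrasts. In edgeR's test 0 genes differed (0%), with 270 genes (1.09%) toward a higher and 164 (0.659%) toward a lower value in EE501F2_093 at an unadjusted p under 0.05. By DESeq2 0 genes differed. In USDA8380-1 itself 758 genes (3.05%) were higher and 553 (2.22%) lower at an unadjusted p under 0.05, and edgeR called 0. Soltu.DM.11G024480.3 had a log2 fold change of 2.01 in EE501F2_093 and 1.71 in USDA8380-1, where it had 135 and 104 CPM with beetles and 21.7 and 51.5 CPM in controls. The 48 h difference between genotypes was 0.30 (SE 0.64, edgeR unadjusted p = 0.639). At 24 h the order in USDA8380-1 was the reverse, with 111 and 97.5 CPM with beetles and 200 and 142 CPM in controls.

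Soltu.DM.02G026930.1 and Soltu.DM.06G018650.1 had the smallest p of this comparison in each direction, and their arms were in opposite order in the 2 genotypes. Soltu.DM.02G026930.1 had 8.43 and 5.82 CPM in the EE501F2_093 beetle libraries, against 3.02 and 3.23 CPM in the control libraries. In USDA8380-1 it had 7.07 and 6.24 CPM with beetles and 12.6 and 8.46 CPM in controls. The USDA8380-1 arms had that order at 0 h too, at 14.7 and 14.6 CPM in plants assigned to beetles and 21.4 and 20.8 CPM in control plants. In EE501F2_093 at 0 h the values were 8.67 and 7.19 CPM and 7.80 and 4.08 CPM, which overlapped. Soltu.DM.06G018650.1 had 9.33 and 14.9 CPM in the EE501F2_093 beetle libraries, against 39.9 and 45.6 CPM in the control libraries. In USDA8380-1 it had 27.7 and 29.8 CPM with beetles and 12.3 and 7.13 CPM in controls. In EE501F2_093 at 0 h it was already lower in plants assigned to beetles, at 20.3 and 15.0 CPM, than in control plants, at 33.2 and 35.6 CPM. In USDA8380-1 at 0 h it was already higher in plants assigned to beetles, at 32.9 and 30.7 CPM, than in control plants, at 17.8 and 27.5 CPM. At 24 h the USDA8380-1 arms overlapped for both genes.

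Soltu.DM.02G024260.1 was also named for this comparison, and it was almost silent in EE501F2_093. The gene passed the rule of at least 5 CPM, taken over both genotypes, only through its level in USDA8380-1. It had 0.956 and 0.288 CPM in the EE501F2_093 beetle libraries, against 1 count and no count in the control libraries. The ratio of summed counts was 49.9, with an exact 95% interval of 8.48 to 2015. In USDA8380-1 it had 10.7 and 14.8 CPM with beetles and 4.87 and 36.6 CPM in controls, which overlapped. The difference between genotypes was 5.93 (SE 1.70; edgeR unadjusted p = 0.00303, adjusted p = 1.00), a fitted value that depends on the prior count. Before beetles the gene was already more abundant in EE501F2_093 plants assigned to beetles, at 1.51 and 2.23 CPM, than in control plants, at 0.162 and 0.0749 CPM. In USDA8380-1 before beetles the gene had 6.63 and 1.58 CPM in plants assigned to beetles and 62.2 and 69.6 CPM in control plants.

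Soltu.DM.01G049230.1 had arms that were apart in USDA8380-1 but not in EE501F2_093. In EE501F2_093 it had 5.87 and 4.28 CPM in beetle libraries, against 5.58 and 7.64 CPM in control libraries, which overlapped. In USDA8380-1 it had 29.4 and 13.2 CPM with beetles and 7.62 and 4.10 CPM in controls. Before beetles the USDA8380-1 arms were already apart, at 21.4 and 19.3 CPM in plants assigned to beetles and 6.97 and 7.69 CPM in control plants. The difference between genotypes was -2.24 (SE 0.63; edgeR unadjusted p = 0.00268, adjusted p = 1.00).

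Higher genes were spread over all 12 chromosomes. Their share of the genes tested ranged between 1.31% on chromosome 5 and 2.84% on chromosome 12, and the share of lower genes between 0.512% on chromosome 7 and 0.971% on chromosome 6. Higher genes outnumbered lower ones on each of the 12 chromosomes. No difference between chromosomes was tested.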

How the data were processed

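Per the labels' protocols, stranded mRNA libraries were sequenced as single reads of 50 nt. Trimmomatic 0.35, STAR 2.7.3a, Picard and HTSeq are named in the submitters' processing notes; no genome build or annotation is named there, and neither is given in the sources used here. Deposited were raw counts of reads per gene, made by the authors with HTSeq and not normalized. The summary lines below the genes, a median of 9.99% of reads, entered neither library sizes nor tests.

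Genes were filtered with filterByExpr (24870 of 32917 kept), scaled by TMM and fitted as 12 groups over all 24 libraries. The test was quasi-likelihood (edgeR 4.0.16, R 4.3.3), with Benjamini-Hochberg adjustment and a threshold of 0.05. The biological coefficient of variation was 0.413. SE are those implied by the test statistic. Scripts were tested on simulated data. Alternatives included DESeq2 1.42.0, other scalings, filters and sets of libraries, a replicate block and leaving out each library. The named genes had a mean of at least 5 CPM over the libraries of their comparison, for 48 h also non-overlapping arms. In each comparison they were the 2 with the smallest p in each direction. Gene lists by product could not be applied, since identifiers carry no names. Members, lists and rules were chosen with earlier results of these data known, and the 8-fold rule and the abundant genes after these values were seen. Intervals cover counting error only.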

Additional observations from a re-analysis of the deposited data

Results flagged for a closer look

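In 2 named genes every beetle library of EE501F2_093 lay on one side of the controls at 48 h and every beetle library of USDA8380-1 on the other. For Soltu.DM.02G026930.1 the difference of the contrasts, EE501F2_093 minus USDA8380-1, was 1.85 (SE 0.50). The contrasts themselves were 1.19 in EE501F2_093 and -0.66 in USDA8380-1, and the edgeR adjusted p of the difference was 1.00. For Soltu.DM.06G018650.1 the difference was -3.38 (SE 0.94), with -1.82 in EE501F2_093 and 1.56 in USDA8380-1 and an edgeR adjusted p of 1.00. Neither passed the adjustment, and both were chosen for a small p in this comparison. In USDA8380-1 both genes had their 48 h order of arms at 0 h already, before beetles. In EE501F2_093 that held for Soltu.DM.06G018650.1, whereas the 0 h arms of Soltu.DM.02G026930.1 overlapped. At 24 h the USDA8380-1 arms overlapped for both genes. Soltu.DM.06G018650.1 then had 49.8 and 17.5 CPM with beetles and 193 and 24.2 CPM in controls. Soltu.DM.02G026930.1 had 7.46 and 12.1 CPM with beetles and 12.4 and 8.19 CPM in controls. In EE501F2_093 at 24 h the arms of Soltu.DM.06G018650.1 kept their order, and those of Soltu.DM.02G026930.1 overlapped.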

How the results depend on the processing

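Each arm had 2 libraries, and replicates were 2-fold apart in 10.2% to 10.6% of genes. The part of depth in that spread was not tested. For beetle against control at 48 h, 0 genes at an adjusted p under 0.05 became 5 with DESeq2 and 1 in the fit of the 12 EE501F2_093 libraries, and stayed 0 in the other alternatives and with each library left out. The 693 genes at an unadjusted p under 0.05 became 1467 in the 12-library fit (819 higher, 648 lower), 1185 without the 2 USDA8380-1 libraries that stood apart (672 and 513), and 370 to 1419 with 1 library left out. The share of higher genes was lower in both of these fits, and the cause was not tested. The 716 genes with arms apart by 2-fold became 100 at 4-fold and 333 with a prior of 2 CPM, and 991 to 2417 with 1 library left out. The 15 genes 8-fold apart became 24 to 207, since fewer libraries have to agree. The 36 runs became 77 in the 12-library fit, where more genes were past the unadjusted threshold. Leaving out a library changed the log2 fold change of Soltu.DM.11G024480.3 to between 1.59 and 2.34, of Soltu.DM.08G022130.3 to between 1.84 and 1.90, of Soltu.DM.05G005140.1 to between -1.64 and -1.0, and of Soltu.DM.01G033780.1 to between -2.15 and -0.46. The other 4 comparisons gave 0 genes in every alternative that was run, with a lowest adjusted p of 0.0704 (DESeq2, difference between genotypes).

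The labels do not say that replicate numbers pair libraries. Deviations of same-numbered libraries correlated across genes at r = -0.127 at 0 h, 0.184 at 24 h and 0.192 at 48 h. In a fit with a replicate block, 0 genes passed at 48 h and 599 had an unadjusted p under 0.05 (420 higher, 179 lower).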
